A study of Mus musculus with 2 samples.

Results

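Expression of 10 genes of the primary granule programme was followed in a pair of mouse leukaemias of the acute promyelocytic type, APL#2 and APL#1. Symbols chose the members: myeloperoxidase (Mpo), 4 serine proteases (Elane, Prtn3, Ctsg and Prss57), the membrane protein gene Ms4a3, the lectin gene Fcnb and the protease inhibitor genes Slpi, Serpinb1a and Cst7. All 10 were found among the 23235 genes of the deposited table. This type of leukaemia arises from the fusion protein PML-RAR in cells at the promyelocyte stage, and the series describes its 2 leukaemias as clones that differ in how often their cells can start the disease anew.

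Each leukaemia arose in a C57BL/6-Ly5.2 mouse carrying PML-RAR, and both samples are given as 10 weeks of age. The treatment field calls both untreated, whereas both titles carry the letters VEH, which are not explained; a vehicle given to both animals can therefore not be told from no treatment. The labels name the animals mCG-PML-RAR transgenic in some fields and PML-RAR knock-in in others. In mouse models of that name, mCG stands for the murine cathepsin G locus, which is Ctsg, itself among the 10 genes. Leukaemic cells positive for CD45.2 were grown in non-irradiated recipients with the CD45.1 allele, after 200000 cells for APL#2 and 2000000 cells for APL#1. The cells were recovered from spleen on immunomagnetic columns and RNA was sequenced, with 1 library for APL#2 and 1 for APL#1. There is therefore no replicate, no test was run, and leukaemia, cell dose, recipient and library cannot be told apart. In bulk RNA, fewer cells of a type and less RNA per cell cannot be told apart either.

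Primary, or azurophil, granules are made at the promyelocyte stage of neutrophil development, and their enzymes are transcribed mainly then. Myeloperoxidase turns hydrogen peroxide and chloride into hypochlorous acid. The serine proteases neutrophil elastase (Elane), proteinase 3 (Prtn3), cathepsin G (Ctsg) and neutrophil serine protease 4 (Prss57) are stored in active form after the dipeptidase cathepsin C (Ctsc) has trimmed them. Slpi, a small secreted inhibitor, blocks elastase and cathepsin G, Serpinb1a is a cytosolic serpin that traps the granule serine proteases, and Cst7 encodes cystatin F, which inhibits cathepsin C.

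Promoter windows of 8 of the 10 genes were matched by symbol in RefSeq (build GRCm38.p6), from 250 bases before to 50 bases after the gene's start; Prss57 and Serpinb1a were not matched. The 5 printed here belong to the 2 genes with the lowest ratio of APL#2 to APL#1, to the neighbour of Elane, to the gene with the highest ratio and to the cathepsin G locus. Capitals mark GGAAGT, the core bound by PU.1 and other ETS factors, or its reverse complement.
Elane, chr10:79886062-79886361, + strand: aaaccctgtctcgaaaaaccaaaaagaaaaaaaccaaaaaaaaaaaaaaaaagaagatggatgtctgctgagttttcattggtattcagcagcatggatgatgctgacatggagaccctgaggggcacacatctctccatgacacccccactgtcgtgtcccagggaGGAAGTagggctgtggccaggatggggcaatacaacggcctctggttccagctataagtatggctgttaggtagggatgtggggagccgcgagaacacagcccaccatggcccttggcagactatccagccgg
Prtn3, chr10:79879417-79879716, + strand: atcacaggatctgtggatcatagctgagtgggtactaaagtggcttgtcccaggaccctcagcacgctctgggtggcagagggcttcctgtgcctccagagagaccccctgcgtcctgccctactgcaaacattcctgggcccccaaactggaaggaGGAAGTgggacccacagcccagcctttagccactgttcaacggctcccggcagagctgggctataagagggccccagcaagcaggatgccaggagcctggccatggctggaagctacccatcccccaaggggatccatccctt
Mpo, chr11:87793534-87793833, + strand: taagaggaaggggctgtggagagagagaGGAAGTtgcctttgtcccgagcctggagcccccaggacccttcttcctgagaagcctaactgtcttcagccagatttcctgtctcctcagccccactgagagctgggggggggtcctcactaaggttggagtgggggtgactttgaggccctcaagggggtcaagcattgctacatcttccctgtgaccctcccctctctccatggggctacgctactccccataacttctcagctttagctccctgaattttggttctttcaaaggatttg
Ctsg, chr14:56102525-56102824, - strand: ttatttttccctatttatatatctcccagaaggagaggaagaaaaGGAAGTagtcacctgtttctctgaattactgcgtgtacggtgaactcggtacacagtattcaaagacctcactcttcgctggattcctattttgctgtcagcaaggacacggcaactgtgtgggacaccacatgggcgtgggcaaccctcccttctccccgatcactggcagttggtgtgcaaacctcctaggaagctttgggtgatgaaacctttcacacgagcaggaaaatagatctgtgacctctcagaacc
Slpi, chr2:164356458-164356757, - strand: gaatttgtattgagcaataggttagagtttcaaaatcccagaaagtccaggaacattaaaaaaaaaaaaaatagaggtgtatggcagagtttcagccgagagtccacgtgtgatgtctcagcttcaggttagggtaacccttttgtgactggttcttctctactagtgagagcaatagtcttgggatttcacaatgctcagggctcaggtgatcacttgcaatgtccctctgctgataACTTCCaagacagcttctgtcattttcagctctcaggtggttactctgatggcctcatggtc

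The GGAAGT core was present on either strand in all 8 matched windows, against 23.8% of 32851 windows of the same length. It began 83 bases before the start in Elane, 93 in Prtn3, 222 in Mpo and 205 in Ctsg, and in Slpi it lay on the opposite strand 12 bases before the start. The core was chosen after the windows had been read, and a match is a description of letters, not of binding. Of 4 other motifs searched on both strands, the MYB core CAACGG was found in Elane and Prtn3 only among the 8, 51 and 56 bases before the start, and in 5.12% of all windows. TATAAG was found in Elane, Prtn3 and Fcnb (7.43% of all windows), TGTGGT, the RUNX core, in Cst7 and Ctsg (16.8%), and TTNCNNAA, a loose C/EBP pattern, in Fcnb, Cst7, Slpi and Ms4a3 (40.7%). Elane and Prtn3 share the 9 bases GGAGGAAGT, which span the core and begin 86 and 96 bases before the start. The other shared stretches of at least 8 bases were TGTCCCAGG, CACAGCCCA and GCTATAAG. The last of these began 33 bases before the start in Elane and 34 in Prtn3. No other motif overlapped GGAAGT in the 5 printed windows, whereas in Ms4a3 the C/EBP pattern did.

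Levels were read as FPKM, fragments scaled by transcript length and library total, from the layout of the table, whose header names no unit. Their sums, 35240 in APL#2 and 34894 in APL#1, are low for FPKM, and the comparisons of levels between genes rest on this reading. Each difference is log2((FPKM in APL#2 + 1)/(FPKM in APL#1 + 1)), and the pseudocount of 1 understates those of low genes. A gene is called measured where its FPKM averaged 1 or more over both libraries, and 2-fold higher or lower where it is measured and the difference is at least 1 in size. Over the 4100 measured genes the median difference was -0.17, with quartiles of -0.37 and 0.04. A standard error was also taken for each gene as the size of its plain log2 ratio over the size of the test statistic in the authors' deposited table, whose sign runs opposite to APL#2 over APL#1. It belongs to the plain ratio and rests on the authors' model, not on replicates. Counting intervals come from fragment numbers estimated from the steps in low values and cover counting error only.

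Of the 10 genes, 9 were measured and Fcnb was not. Among these 9, Mpo, Elane and Prss57 were at least 2-fold lower in APL#2 and Slpi was at least 2-fold higher. Over all 4100 genes the shares were 2.44% lower and 2.10% higher, and without genes of microRNAs and other small RNAs 1.72% and 1.32%. The other 5 lay between the thresholds. The members were chosen with earlier results of these data known. The shares over all genes are therefore background and no test of the 10. The median difference of the 9 was -0.12, the value of Serpinb1a, and close to the median of all genes. The called genes went both ways: plain ratios of APL#2 to APL#1 ran over a 14.1-fold range, from 0.155 for Elane to 2.19 for Slpi.

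**Figure D1:**
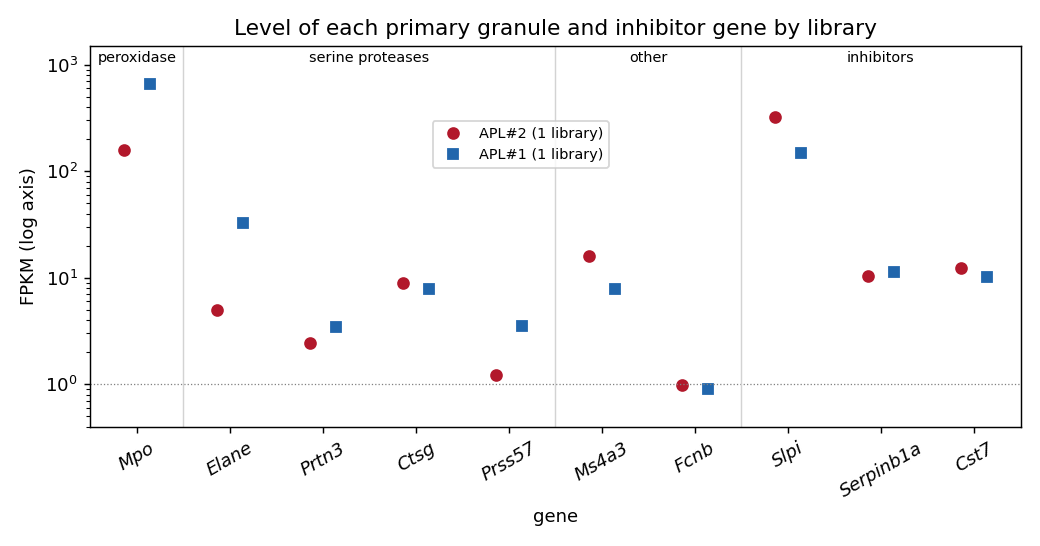
FPKM of the 10 genes on a log axis, with APL#2 as circles and APL#1 as squares and 1 library each; the dotted line marks FPKM 1. Mpo stands at 157.3 and 661.8 FPKM in APL#2 and APL#1, Elane at 5.01 and 32.4, and Slpi goes the other way at 320.6 and 146.6.

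Mpo (mm9 chromosome 11, 87607285 to 87617914) stood at 157.3 FPKM in APL#2 and 661.8 FPKM in APL#1. Its level was thus 4.21-fold lower in APL#2, a log2 difference of -2.07. It took 0.446% of the summed FPKM of all genes in APL#2 and 1.90% in APL#1. Ranked by FPKM with small RNA genes left out, it was number 19 in APL#2 and number 3 in APL#1, so it was among the most abundant messengers in both. On the plain log2 ratio of -2.07 the implied standard error was 0.61, and in the authors' deposited table p was 0.000713 and q 0.299. The fragment numbers behind it, estimated at 24448 in APL#2 and 94661 in APL#1, leave little counting error: the interval of the APL#2 to APL#1 ratio was 0.234 to 0.241.

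Elane (mm9 chromosome 10, 79349056 to 79350961), neutrophil elastase, had the lowest ratio of the 10. It stood at 5.01 FPKM in APL#2 and 32.4 FPKM in APL#1, a 6.46-fold lower level and a log2 difference of -2.47. Only 22 of the 4100 genes had a lower difference. About 279 fragments in APL#2 and 1658 in APL#1 gave a counting interval of 0.136 to 0.176 for the ratio. Elane's implied standard error was 0.78 on a plain log2 ratio of -2.69, and the authors' deposited table gave p 0.000590 and q 0.267.

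The other 3 serine proteases had differences smaller in size than that of Elane. Whether they differ from Elane beyond their implied standard errors was not tested. Prtn3, proteinase 3, lies next to Elane, ending 3139 bases before Elane begins (mm9 chromosome 10, 79342411 to 79345917). It stood at 2.45 FPKM in APL#2 and 3.45 FPKM in APL#1. Its log2 difference was -0.37 and its plain log2 ratio -0.49 with an implied standard error of 1.03. Ctsg, cathepsin G (mm9 chromosome 14, 56718717 to 56721411), stood at 8.99 FPKM in APL#2 and 7.89 FPKM in APL#1, a difference of 0.17, with a counting interval of 0.999 to 1.30 for the ratio. The fusion gene of these mice is named for the Ctsg locus, and its part in the Ctsg level was not tested.

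Prss57 (mm9 chromosome 10, 79240018 to 79251730), the protease with a preference for arginine, stood at 1.22 FPKM in APL#2 and 3.52 FPKM in APL#1, 2.88-fold lower by the plain ratio. Its difference of -1.02 lay just past the threshold. On its plain log2 ratio of -1.53 the implied standard error was 0.95, and the authors' deposited table gave p 0.108. The call was lost when all values were scaled by the median ratio (-0.88) or by a trimmed mean of ratios (-0.91), and with a pseudocount of 5 (-0.45). The deposited table gives Prss57 the same locus as Fstl3, which stood at 0.118 FPKM in APL#2 and 0.0850 FPKM in APL#1.

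**Figure D2:**
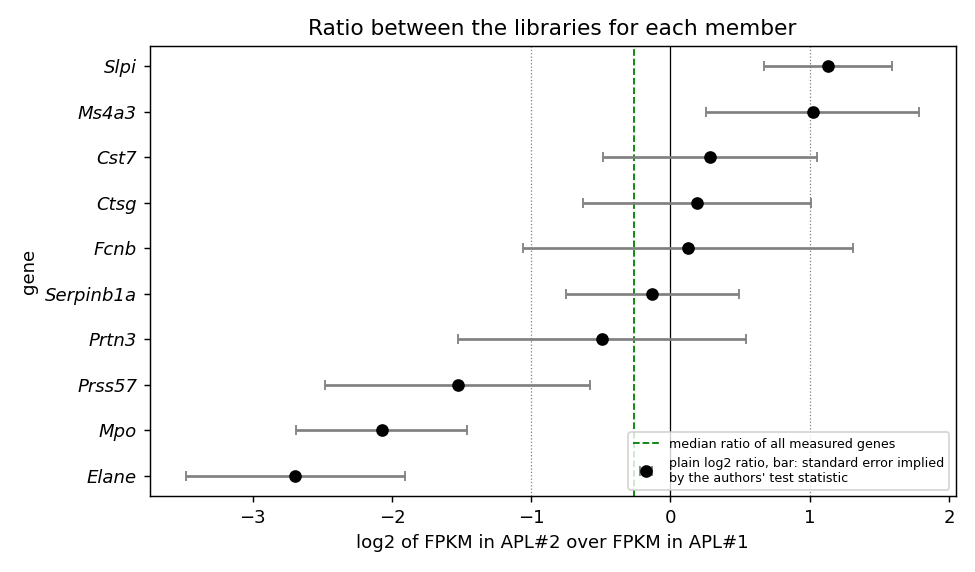
Plain log2 ratio of FPKM in APL#2 over APL#1 for each of the 10 genes, with bars of 1 standard error implied by the authors' test statistic, the median ratio of all measured genes (dashed) and ratios of 2 in either direction (dotted). Elane (-2.69), Mpo (-2.07) and Prss57 (-1.53) lie lowest and Slpi (1.13) and Ms4a3 (1.02) highest; the bars of the other 5 cross 0.

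Slpi (mm9 chromosome 2, 164179805 to 164182243), the secretory leukocyte protease inhibitor, stood at 320.6 FPKM in APL#2 and 146.6 FPKM in APL#1. It was 2.19-fold higher in APL#2, a difference of 1.12, with an implied standard error of 0.46 on its plain log2 ratio of 1.13. In the authors' deposited table p was 0.0141 and q 1.00. With small RNA genes left out it ranked number 7 in APL#2 and number 21 in APL#1. It was the highest of the 10 genes in APL#2, whereas Mpo was the highest in APL#1.

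The other inhibitors differed little between the leukaemias. Cst7, cystatin F (mm9 chromosome 2, 150396150 to 150404680), stood at 12.3 FPKM in APL#2 and 10.1 FPKM in APL#1, a difference of 0.26. Serpinb1a (mm9 chromosome 13, 32933960 to 32943054) stood at 10.4 FPKM in APL#2 and 11.4 FPKM in APL#1; its difference of -0.12 turned to 0.12 when values were scaled by the median ratio and to 0.06 by the trimmed mean. Serpinb1a has the close copies Serpinb1b (9.65 and 10.6 FPKM in APL#2 and APL#1) and Serpinb1c (4.73 and 5.27), and reads may be split among the 3.

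Ms4a3 and Fcnb are not enzymes. Ms4a3 (mm9 chromosome 19, 11703986 to 11715324), which marks granulocyte and monocyte progenitors in the mouse, stood at 15.9 FPKM in APL#2 and 7.85 FPKM in APL#1. Its plain ratio was 2.03, with a counting interval of 1.80 to 2.28, but its difference of 0.94 was under the threshold. On its plain log2 ratio of 1.02 the implied standard error was 0.76, and the authors' deposited table gave p 0.181. With a pseudocount of 0.1 or with either scaling the difference passed the threshold (1.01, 1.18 and 1.12). Fcnb (mm9 chromosome 2, 27931998 to 27940398), which encodes ficolin B, a lectin that binds microbial sugars, stood at 0.980 FPKM in APL#2 and 0.897 FPKM in APL#1. Its mean lay below 1. Its counting interval of 0.748 to 1.59, from about 65 and 55 fragments in APL#2 and APL#1, includes 1, so no difference beyond counting error was seen. The interval lay within 2-fold in either direction, and a difference inside it could not be told from counting error at this depth.

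Set against each other within a library, proteases and inhibitors stood in different proportion, mainly through Elane and Slpi. The 4 serine proteases summed to 17.7 FPKM in APL#2 and 47.3 FPKM in APL#1. Elane made up 28.4% of that sum in APL#2 and 68.6% in APL#1, and Ctsg 50.9% and 16.7%. Without Elane the other 3 summed to 12.7 FPKM in APL#2 and 14.9 FPKM in APL#1, so most of the difference in the sum was that of Elane.

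The 3 inhibitors summed to 343.3 FPKM in APL#2 and 168.2 FPKM in APL#1, of which Slpi made up 93.4% and 87.2%. The sum of inhibitors was 19.4 times that of the serine proteases in APL#2 and 3.56 times in APL#1. With Elane and Slpi left out, Cst7 plus Serpinb1a stood at 1.79 times the other serine proteases in APL#2 and 1.45 times in APL#1. Both inhibitor sums include Cst7, which inhibits cathepsin C. Slpi alone stood at 64.0 times the level of Elane in APL#2 and 4.53 times in APL#1. Mpo and Slpi changed places: Slpi was 2.04 times Mpo in APL#2 and 0.222 times Mpo in APL#1. These ratios are taken within a library, so no scaling between libraries enters them, but they compare RNA and not protein or inhibition.

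**Figure D3:**
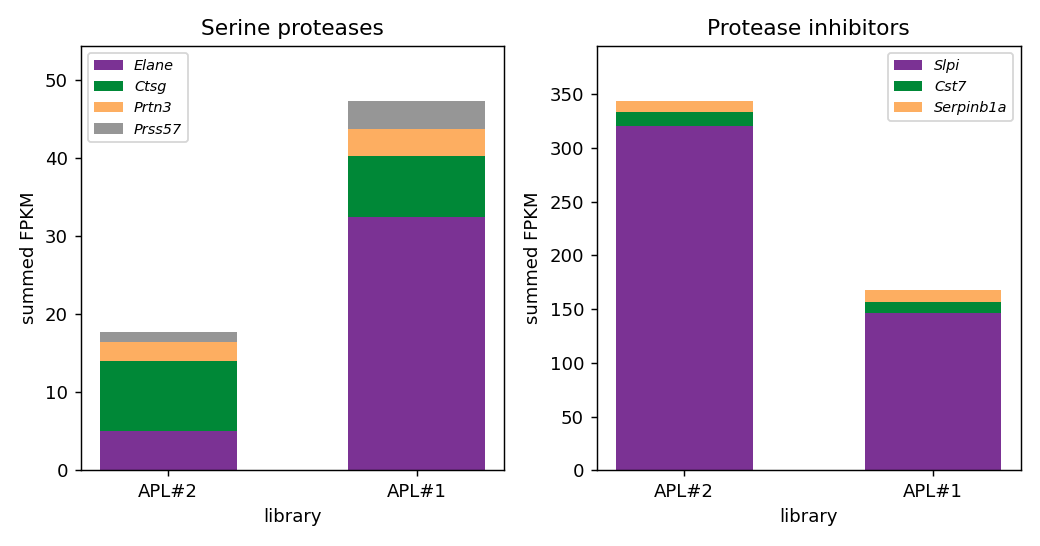
Summed FPKM of the 4 serine proteases (left) and the 3 inhibitors (right), with APL#2 as the first bar and APL#1 as the second in each panel and the genes stacked. The protease bar is 17.7 FPKM in APL#2 and 47.3 in APL#1, with Elane as the part that differs most; the inhibitor bar is 343.3 in APL#2 and 168.2 in APL#1, nearly all of it Slpi.

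Around the leading genes, most other genes did not share their difference. Within 5 Mb of Elane, the 75 other measured genes had a median difference of -0.28 (quartiles -0.41 and -0.06), against -2.47 for Elane itself. Of 202 other measured genes on chromosome 10, 201 had a higher difference than Elane; the exception was the microRNA gene Mir678. Near Mpo, 20 measured genes had a median of -0.11, and 368 of 369 others on chromosome 11 had a higher difference than Mpo, the exception being the small RNA gene Snord4a. Near Slpi, 23 measured genes had a median of -0.15, and 4 of 274 others on chromosome 2 had a higher difference than Slpi (1500012F01Rik and the small RNA genes Snora17, Snord12 and Mir3091).

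Ms4a3 lay on chromosome 19, where most genes were higher in APL#2. The 133 other measured genes there had a median ratio of 1.62 and a median difference of 0.43, against 0.94 for Ms4a3, and 11 of them lay above it. Relative to the chromosome's median ratio Ms4a3 stood at 1.25-fold. Its neighbours Ms4a6c (5.45 FPKM in APL#2 and 4.34 in APL#1), Ms4a6d (3.02 and 2.502) and Ms4a6b (1.73 and 1.37), membrane proteins of the same family, had differences of 0.20 to 0.27. On chromosome 2 the median ratio was 0.752, and relative to it Slpi stood at 2.91-fold and Cst7 at 1.62-fold. Relative to the median ratios of their own chromosomes, Elane stood at 0.187, Mpo at 0.293, Prss57 at 0.420 and Prtn3 at 0.860. Ctsg stood at 1.43 and Serpinb1a at 1.16 by the same measure.

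The protease cluster on chromosome 10 held 3 of the 10 genes, with Prss57 beginning 109 kb before Elane. Between and beside them lay unrelated genes with small differences: Ptbp1, a splicing regulator (-0.33), Med16, of the Mediator complex (-0.40), Palm, a membrane-bound phosphoprotein (-0.42), and Rnf126, a ubiquitin ligase (-0.46). Cfd, complement factor D, which follows Elane, was listed at 0 in APL#2 and at 0.0243 FPKM in APL#1. Next to Ctsg, 14683 bases away, lay Mcpt8, a basophil protease of the same family, at 8.04 FPKM in APL#2 and 1.02 FPKM in APL#1, a difference of 2.16. Beside Mpo, Bzrap1, a benzodiazepine receptor associated protein gene, stood at 8.46 FPKM in APL#2 and 15.6 FPKM in APL#1 (-0.81). Over all measured genes 2.44% were called lower and 2.10% higher. Of 53 genes listed within 3 rows of any of the 10, 14 were measured and Mcpt8 alone passed the 2-fold threshold. The others not yet named, with their differences, were Supt4h1 (0.06) and the microRNA gene Mir142 (0.88) near Mpo, C030046I01Rik (-0.22) near Elane, Wdr5 (-0.51) near Fcnb, Gmds (-0.31) near Serpinb1a and 2310001A20Rik (0.18) near Cst7.

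**Figure D4:**
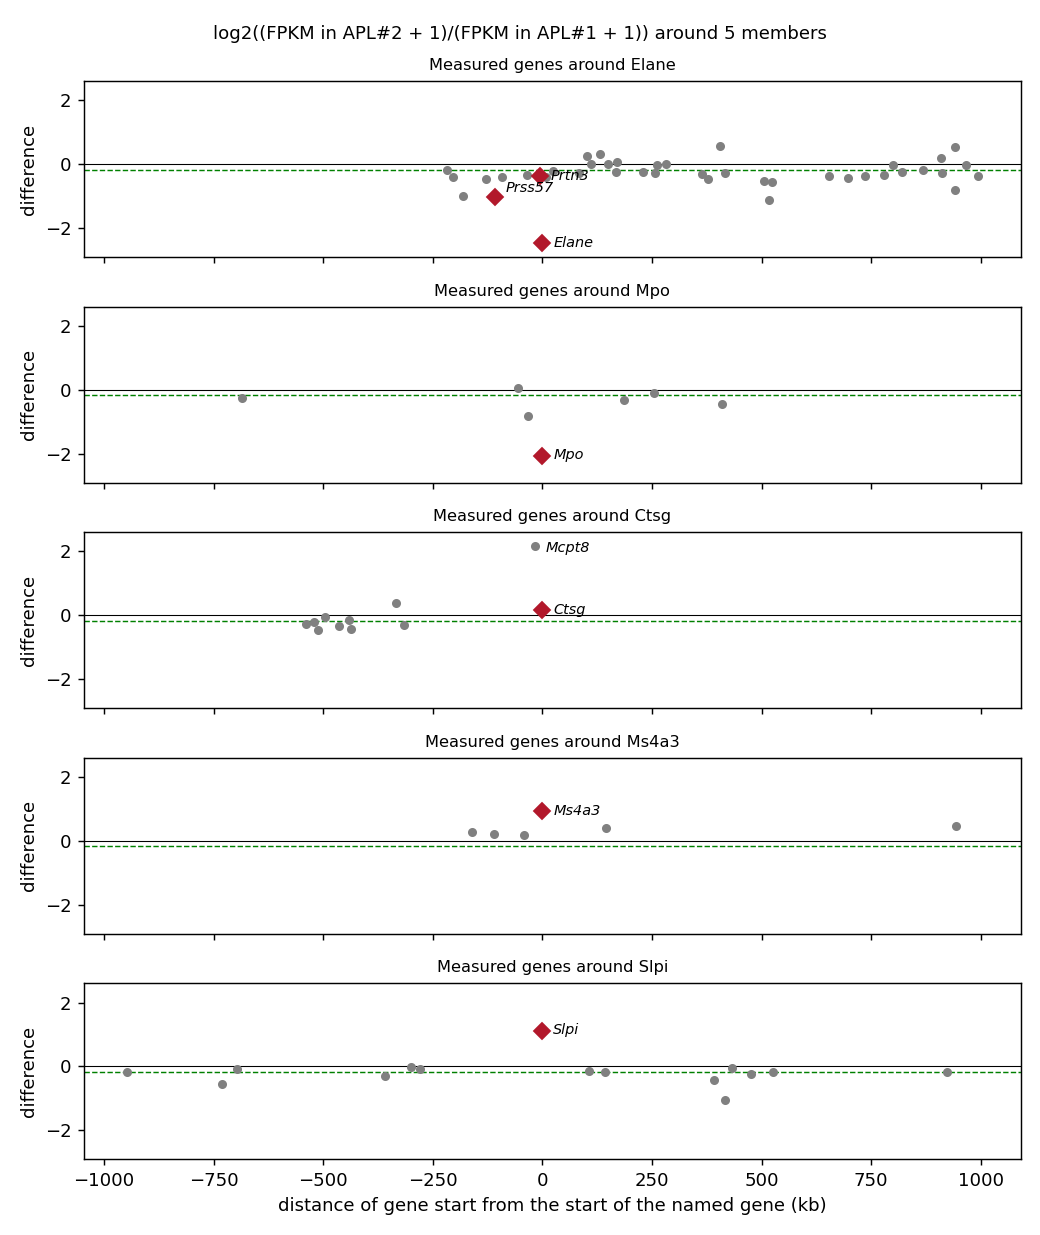
Difference, log2((FPKM in APL#2 + 1)/(FPKM in APL#1 + 1)), of measured genes without small RNA genes, against the distance of their start from that of Elane, Mpo, Ctsg, Ms4a3 or Slpi in kb. Diamonds are genes of the 10, grey points are other genes, and the dashed line is the median of all measured genes (-0.17); Elane (-2.47), Mpo (-2.07) and Slpi (1.12) lie apart from the points around them.

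Other contents of the granule and the proteins that process them were listed as 51 genes, of which 35 were measured. Of these 35, 1 was at least 2-fold lower in APL#2 and 2 were at least 2-fold higher, and 22 lay below the median of all measured genes. Over all measured genes 2.44% were called lower and 2.10% higher. These shares are the background for this list and for those below, and the counts of called genes are no test of any list. The list median was -0.34, against -0.17 for all genes. The gene called lower was Calr, calreticulin, a chaperone that binds the myeloperoxidase precursor in the endoplasmic reticulum, at 48.1 FPKM in APL#2 and 119.9 FPKM in APL#1 (-1.30). The genes called higher were Mcpt8, of basophils, and Ctsh, a lysosomal aminopeptidase, at 2.997 FPKM in APL#2 and 0.259 FPKM in APL#1 (1.67). Mcpt8 was in this list although it is a basophil protease and a basophil marker below.

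The most abundant of these granule genes had smaller differences than Mpo or Elane. Srgn, serglycin, the proteoglycan on which granule proteases are packed, stood at 53.3 FPKM in APL#2 and 47.6 FPKM in APL#1 (0.16). Cd63, a membrane protein of the granule, stood at 37.2 FPKM in APL#2 and 51.8 FPKM in APL#1 (-0.47). Plac8 (90.1 and 99.5 FPKM in APL#2 and APL#1) and Nkg7 (26.7 and 37.3) had differences of -0.14 and -0.47. Ctsc, the activator of the serine proteases, was near the lower end of detection, at 0.157 FPKM in APL#2 and 0.0694 FPKM in APL#1, far below Elane in both.

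Among other protease inhibitors, 50 of 55 listed symbols were found and 6 were measured. None of the 6 was at least 2-fold different in either direction. Their median difference was -0.35, and 4 of the 6 lay below the median of all genes. Cst3, cystatin C, was the most abundant at 28.8 FPKM in APL#2 and 35.96 FPKM in APL#1 (-0.31). Cstb, an intracellular cystatin, stood at 6.66 FPKM in APL#2 and 12.7 FPKM in APL#1 (-0.84), Spint2, which inhibits membrane serine proteases, at 8.74 and 14.4 FPKM (-0.66), and Serpine2 at 4.39 and 6.07 FPKM (-0.39). Together with Slpi, Cst7 and Serpinb1a these make 9 measured inhibitors, of which Slpi alone passed the threshold.

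The list of later granule genes also went both ways, but it holds genes of neutrophil proteins outside the granules too, S100a8 and S100a9 among them. Of 15 measured genes, 2 were called lower, 1 was called higher, and their median difference was 0.12. The lower genes encode the calcium-binding proteins S100a8 (105.3 FPKM in APL#2 and 309.0 in APL#1, a difference of -1.54) and S100a9 (148.1 and 378.8 FPKM, -1.35). The higher gene was Anxa1, annexin A1, on chromosome 19, at 22.7 FPKM in APL#2 and 5.08 FPKM in APL#1 (1.96). Camp, the cathelicidin of secondary granules, stood at 152.5 FPKM in APL#2 and 97.5 FPKM in APL#1 (0.64), Ngp at 41.7 and 31.7 FPKM (0.38) and Hp, haptoglobin, at 32.3 and 61.2 FPKM (-0.90), all short of the threshold. So were Lcn2 (-0.77), Ltf (-0.82) and Olfm4 (0.77). Of 16 measured regulators and receptors that act on primary granule genes, none was called lower. The receptor gene Csf2ra, on chromosome 19, was called higher at 7.62 FPKM in APL#2 and 2.82 FPKM in APL#1 (1.17), and the median over the 16 was -0.15. Myb stood at 14.05 FPKM in APL#2 and 13.1 FPKM in APL#1 (0.09), Cebpe at 7.40 and 8.20 FPKM (-0.13), Csf3r at 11.8 and 11.9 FPKM (-0.01), Cux1 at 7.53 and 10.6 FPKM (-0.45) and Rara at 8.65 and 7.20 FPKM (0.24). Sfpi1, which encodes PU.1, stood at 5.74 FPKM in APL#2 and 8.55 FPKM in APL#1 (-0.50), Cebpa at 2.61 and 4.74 FPKM (-0.67) and Gfi1 at 3.49 and 5.99 FPKM (-0.64), all short of the threshold; these 3 were named after their values were seen.

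Of 9 measured substrates and receptors of the granule proteases, none passed the threshold, and the list median was 0.13. Grn, progranulin, which elastase and proteinase 3 cleave, stood at 4.15 FPKM in APL#2 and 8.65 FPKM in APL#1 (-0.90). Vcam1, an adhesion receptor cut by elastase and cathepsin G, stood at 7.47 FPKM in APL#2 and 3.94 FPKM in APL#1 (0.78), and Cxcr4, the receptor of a cleaved chemokine, at 11.05 and 7.79 FPKM (0.46). Selplg, a selectin ligand, stood at 3.99 and 4.05 FPKM in APL#2 and APL#1 (-0.02).

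**Figure D5:**
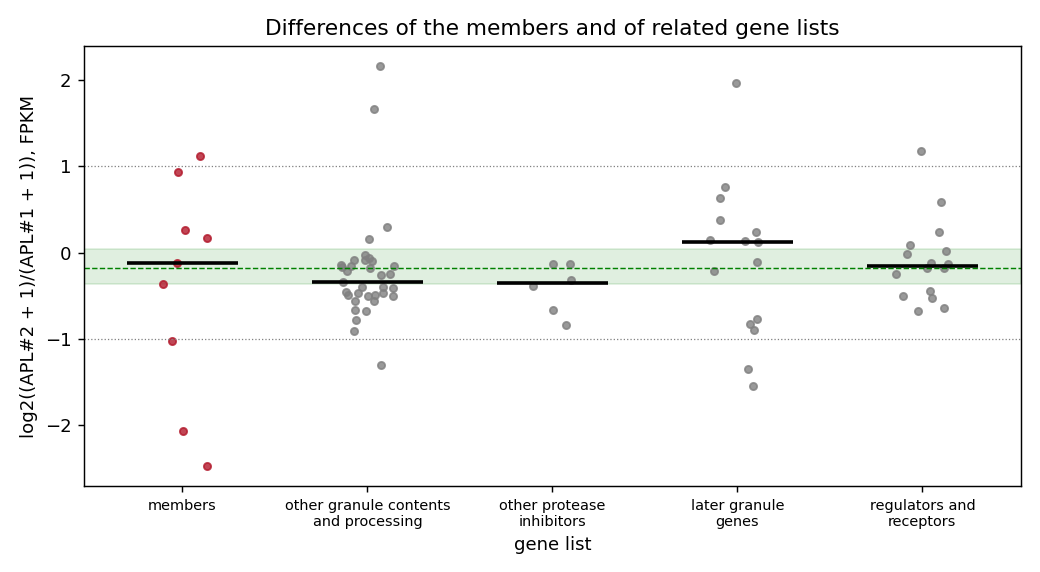
Difference, log2((FPKM in APL#2 + 1)/(FPKM in APL#1 + 1)), of the 9 measured members (red) and of related lists (grey), 1 point a gene, with black bars at list medians, dotted lines at the 2-fold threshold and a green band from quartile to quartile of all measured genes. Medians are -0.12 for the members, -0.34 for other granule genes, -0.35 for other inhibitors, 0.12 for later granule genes and -0.15 for regulators and receptors; the members spread widest below 0.

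Of 341 genes averaging 10 FPKM or more, small RNA genes left out, 4 besides Elane had a lower difference than Mpo: Egr1, Cpa3, Thbs4 and Rps27. In the same group 9 others had a higher difference than Slpi, namely Gsr, Mt1, Anxa1, Clec12a, Fau, Rpl32, Gm6251, H2-Q9 and a row shared by Gm9846 and Rps27. Small RNA genes added 11 below Mpo and 18 above Slpi. Rps27 is uncertain, since it stands on both sides, with 0.784 FPKM in APL#2 and 20.9 FPKM in APL#1 in its own row, and in the shared row 44.0 FPKM in APL#2 and 8.17 FPKM in APL#1. With 2 libraries no closer measure of likeness can be given.

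Of 7 promyelocyte markers, which are themselves members, 6 were measured and Fcnb lay just under the limit. Erythroid, B cell, T cell and NK cell markers summed to at most 0.470 FPKM a list in APL#2 and 0.233 in APL#1, with Ncr1, Prf1, Epor and Slc4a1 at 0 in both. The sums cover 7 of 9 listed erythroid markers, 6 of 7 for B cells, 7 of 8 for T cells and 6 of 6 for NK cells. Hba-a1, Hbb-b1, Ighm and Trac were not found under these symbols, so their levels are not in the sums. Basophil and mast cell markers summed to 18.4 FPKM in APL#2 and 53.2 FPKM in APL#1. In that list 4 of 10 were measured, namely Cpa3 (7.09 and 41.3 FPKM in APL#2 and APL#1), Hdc (1.24 and 7.75), Gata2 (1.83 and 2.998) and Mcpt8 (8.04 and 1.02). Mcpt8 thus went the other way from Cpa3, Hdc and Gata2. Fcer1a, Prss34, Cma1, Tpsb2 and Tpsab1 were listed at 0 in both. Monocyte markers summed to 131.6 FPKM in APL#2 and 229.4 FPKM in APL#1, with 2 of 6 measured: Ly6c2 (130.5 and 224.2 FPKM), which promyelocytes also express, and F13a1 (0.726 and 4.75); Csf1r, Ccr2 and Cx3cr1 were below 1. Eosinophil markers, of which 6 of 9 were found, summed to 0.752 FPKM in APL#2 and 1.62 in APL#1, with Ear1 at 0 in both. Macrophage and dendritic cell markers came to 8.18 and 4.09 FPKM, nearly all of it Vcam1, megakaryocyte markers to 3.96 and 2.37, nearly all Itga2b, and stroma and endothelium markers to 2.73 and 4.94, mostly Pecam1 and Pdgfrb. The part of these lists in the differences of Mpo, Elane and Slpi was not tested.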

How the data were processed

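RNA of CD45.2+ leukaemic cells was sequenced in 1 library of APL#2 and 1 of APL#1, grouped by the sample descriptions. Cuffdiff, Cufflinks, TopHat2 2.0.10 and the build mm9 are named, without their roles, in the submitters' processing notes. Annotation, strand and normalization: not given in the sources used here. Values deposited by the authors were read as FPKM, from the Cuffdiff layout per the file headers, and had sums of 35240 (APL#2) and 34894 (APL#1). Each gene further has a test statistic, a score deposited by the authors, and a p-value and q-value from the authors' own test. The table's log2 column, with placeholders at 0, was not used.

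Computed here with Python 3.11.15 (pandas 2.3.3, scipy 1.17.1): plain ratios, log2 differences with a pseudocount of 1, and counts past 2-fold among genes with mean FPKM of at least 1. With 1 library each no test was run, so differences have no replicate check. In low genes APL#2 over APL#1 was most often 0.925, and a single fragment on 1 kb corresponded to 0.0177 FPKM (APL#2) and 0.0192 FPKM (APL#1), implying scaling totals near 56500000 and 52000000 fragments. Transcript lengths for this came from GENCODE M21, not the authors' annotation, so fragment numbers are approximate; 95% intervals are exact binomial. The calculations were tested on simulated data.

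The members and gene lists were chosen with earlier results of these data known. Named were the 10 members; in each list the genes past 2-fold and the 5 most abundant; genes of mean FPKM of at least 10 beyond Mpo or Slpi; and measured genes within 3 rows of a member. Other genes (Ctsc, Cfd, Mir678, Fstl3, Snord4a and 1500012F01Rik among them) were named after their values were seen. Other pseudocounts, filters and scalings were tried as alternatives.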

Additional observations from a re-analysis of the deposited data

How the results depend on the processing

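Of 7 alternative settings, those of the filter leave a single gene's difference as it is and bear only on counts and list medians. Under the others Prss57 ranged from -1.54 to -0.45 and Serpinb1a from -0.14 to 0.12, its sign turning under both scalings. No called gene changed sign. Elane ranged from -2.71 to -1.90, Mpo from -2.09 to -1.81 and Slpi from 1.103 to 1.383, and these 3 were past the 2-fold threshold in each setting. The members called higher numbered 2 in place of 1 with a pseudocount of 0.1, with scaling by the median ratio and with scaling by the trimmed mean of ratios, since Ms4a3 then passed. The members called lower numbered 2 in place of 3 with a pseudocount of 5, both scalings and a mean FPKM of at least 5, since Prss57 was then lost or left out. Of the other granule genes, 2 in place of 1 were called lower with a pseudocount of 0.1, and 1 in place of 2 was called higher with a pseudocount of 5 and 0 with a mean FPKM of at least 5. Their median, -0.34 as reported, was -0.44 with a pseudocount of 0.1, -0.17 with no filter and -0.16 with scaling by the median ratio. For the other protease inhibitor genes the median, -0.35 as reported, was -0.006 with no filter. It was -0.12 with scaling by the median ratio and -0.17 by the trimmed mean. The scalings moved the median of all genes by 0.26 and 0.20 on the plain log2 scale. No paired analysis was possible because each leukaemia has 1 library, and no replicate could be left out. About 65 and 55 fragments for Fcnb limit what can be seen there.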
